A study of Homo sapiens with 6 samples.

Results

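The constitutive proteasome subunit genes were followed in HCT116 cells, an epithelial line from a human colorectal carcinoma, after siRNAs had been directed at the cell cycle kinases CDK4 and CDK6. Members were all genes with a symbol of PSMA, PSMB, PSMC, PSMD or PSME followed by digits alone in the array's annotation, apart from the immunoproteasome genes PSMB8, PSMB9 and PSMB10. The rule found 36 genes among 19777 genes on the array, carried by 71 of its 54675 probe sets, which are groups of short probes for a transcript. The brightest probe set by mean over the 6 arrays stood for its gene. Another 4 names of the family, PSMB11, PSMC5, PSMD7 and PSMD13, had no probe set under their symbol and were not analysed here.

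The study compared 3 arrays of cells given a mix of 30 nM ON-TARGETplus SMARTpool against CDK4 and 30 nM Silencer Select s51 against CDK6 with 3 arrays of cells given the matching control mix, which held 30 nM of the ON-TARGETplus Non-Targeting Control Pool and 30 nM of the Silencer Select Negative Control. Both mixes went in with Lipofectamine RNAiMAX, and cells were taken 96 h later. All 6 samples came from the same line, CDK6 was targeted with a single siRNA product, and the labels call the arrays of a group biological replicates without saying how the cultures were separated, so a p-value sets a change against the spread among these arrays alone. Values were RMA expression on a log2 scale, on which a difference of 1 is a doubling, and array medians lay between 5.36 and 5.39. Changes are given as CDK4/6 siRNA minus control siRNA with the standard error (SE) of the limma fit, and a gene was called changed at a limma adjusted p under 0.05 over all genes.

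The proteasome is the barrel-shaped protease that degrades ubiquitin-tagged proteins, cyclins and CDK inhibitors among them. Its core particle stacks rings of alpha subunits (PSMA), which gate the entrance, around rings of beta subunits (PSMB), which hold the cutting sites. A regulatory particle caps the core: its base holds the PSMC ATPases, which unfold the substrate, and its lid of PSMD subunits removes the ubiquitin chain. The PSME genes encode other caps, PA28 and PA200. When proteasome activity drops, the transcription factor NFE2L1 is known to raise subunit genes together through antioxidant response elements in their promoters.

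The targets were lower after CDK4/6 siRNA, and epithelial markers were bright in the control cells. CDK6 stood at 34.0% of the control level (log2 change -1.56, SE 0.055, limma adjusted p = 7.22e-06), CDK4 at 62.2% (-0.69, SE 0.082, limma adjusted p = 0.000431), and MYC, the transcription factor in the series title, rose by 0.42 (SE 0.060, limma adjusted p = 0.00101). For each of these 3 genes a two-sided exact permutation test gave p = 0.1, the smallest that 3 arrays against 3 allow. Of 5 epithelial markers, EPCAM, KRT18 and KRT19 had control means of 12.80, 13.02 and 13.16 and KRT8 and CDH1 of 11.50 and 10.96. Of the markers of other cells on the list, PTPRC, CDH5, CD3E, PDGFRB, COL1A2 and PECAM1 had control means of 3.78, 4.60, 5.33, 5.62, 4.41 and 6.29, and COL1A1 was at 8.09. Between the groups KRT8 rose by 0.59 and KRT18 by 0.51, while CDH1 fell by 0.54 and COL1A1 by 0.49 (limma adjusted p = 0.000184, 0.000331, 0.000903 and 0.000311). These marker changes were as large as most of the proteasome changes below, their part in them was not tested, and the other 8 markers were not called. In bulk RNA a change in every cell and a change in the share of cells in some state cannot be told apart.

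Proteasome subunit genes were higher after CDK4/6 siRNA as a group, by small amounts. Of the 36 genes, 21 rose past the threshold and 0 fell, while in the same fit 26.8% of all genes were called, 14% higher and 12.9% lower. The median change over the 36 genes was 0.21 on the log2 scale, or 1.15-fold, against -0.0011 over all genes. Of all genes called, 52.0% were higher. With the arrays scaled to their hybridisation spike-ins that share was 78.2%, and all genes had a median of 0.11. In that fit 4733 of all 19777 genes were called higher. Of the members 28 rose and 0 fell. Their median stayed 0.21 above that of all genes. The scaling moves all genes of an array by the same amount, so it could not alter this gap. The change was positive for 34 genes. PSMD10 (-0.09) and PSME1 (-0.02) were the exceptions, neither of them called, and both became positive (0.02 and 0.09) under that scaling. The 3 values of each group did not overlap for 29 of the 36 genes, against 40.9% of all genes. PSME3, at 1.97-fold, was the one member with a change beyond 1.5-fold.

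**Figure D1:**
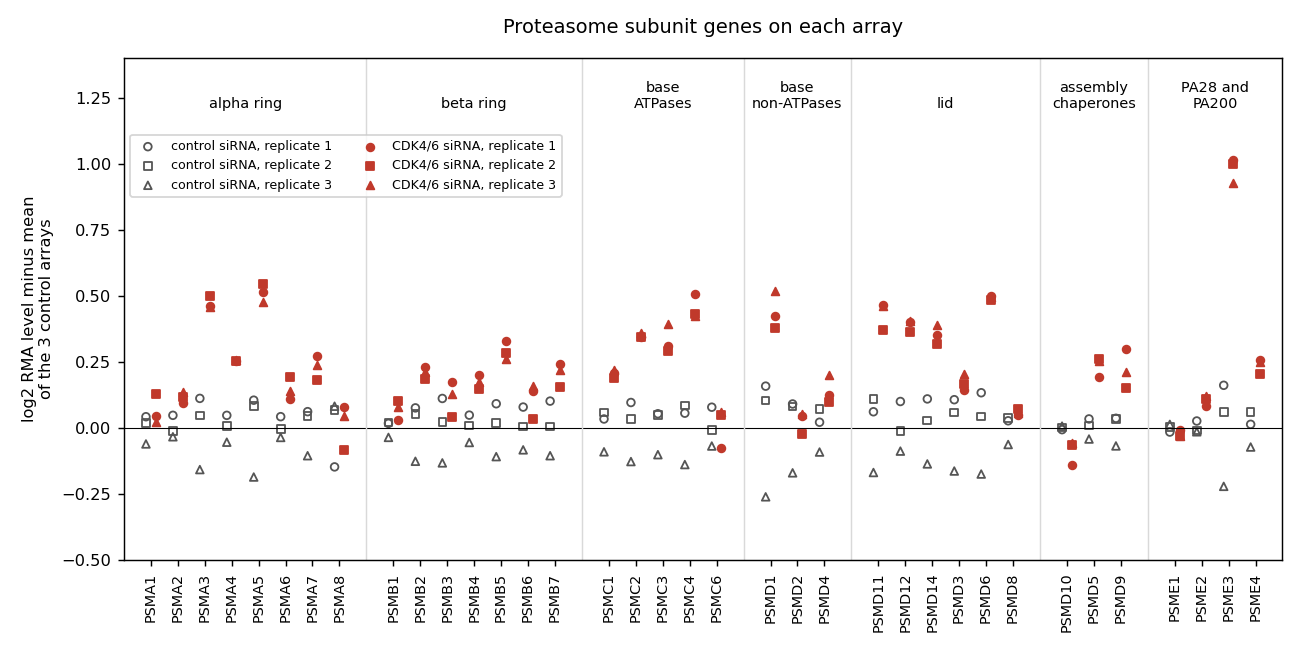
Each of the 36 genes by its place in the proteasome, with the log2 RMA level on each array minus the mean of the 3 control arrays (open symbols, control siRNA; filled symbols, CDK4/6 siRNA; shape, replicate number). Most filled symbols lie above the open ones, PSME3 is highest at about 1, and control replicate 3 (open triangles) is the lowest control for 33 of the 36 genes.

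Among the alpha subunits, 4 of 8 rose and 0 fell. PSMA5 read 10.88, 10.85 and 10.58 on control replicates 1 to 3 and 11.29, 11.31 and 11.25 on CDK4/6 siRNA replicates 1 to 3. Every array of the second group was above every array of the first, and the gene rose by 0.51 (1.43-fold, SE 0.082, limma adjusted p = 0.00177). PSMA3 read 11.18, 11.12 and 10.91 in controls and 11.53, 11.57 and 11.53 after CDK4/6 siRNA. It rose by 0.47 (1.39-fold, SE 0.075, limma adjusted p = 0.00172), again without overlap. PSMA4 read 11.76, 11.72 and 11.66 against 11.96, 11.96 and 11.97 and rose by 0.25 (SE 0.054, limma adjusted p = 0.00755). PSMA7 read 11.77, 11.76 and 11.61 against 11.98, 11.89 and 11.95 and rose by 0.23 (SE 0.064, limma adjusted p = 0.0274). The PSMA4 values after CDK4/6 siRNA were almost identical, with an SD of 0.0029 against 0.051 in controls.

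The other alpha subunits did not pass. PSMA6 gave 0.15 (95% interval 0.022 to 0.271, limma adjusted p = 0.0836), on a probe set that the annotation shares with PRORP. PSMA2 gave 0.11 (-0.007 to 0.235) and PSMA1, with overlapping groups, gave 0.06 (-0.069 to 0.198). PSMA8, the alpha subunit of testis proteasomes, read 3.30 to 3.53 over the 6 arrays and gave 0.01 (-0.165 to 0.190), far below every other member's level.

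Of 7 beta subunits, 4 rose and 0 fell, and most of these calls were near the threshold. PSMB5, which carries the chymotrypsin-like site blocked by proteasome inhibitors such as bortezomib, read 11.37, 11.30 and 11.17 in controls and 11.61, 11.56 and 11.54 after CDK4/6 siRNA. It rose by 0.29 (1.22-fold, SE 0.065, limma adjusted p = 0.00998) with no overlap between groups. PSMB7, the subunit with the trypsin-like site, read 12.00, 11.90 and 11.79 against 12.14, 12.05 and 12.12 and rose by 0.21 (limma adjusted p = 0.0498). PSMB6, with the caspase-like site, read 11.75, 11.68 and 11.59 against 11.81, 11.71 and 11.83, with overlapping groups and a change of 0.11 (95% interval -0.036 to 0.258) that was not called. Thus the genes of the 3 catalytic subunits had changes of 0.29, 0.21 and 0.11, and the differences between them were not tested.

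The other beta subunits have no cutting site of their own. PSMB2 read 11.93, 11.91 and 11.73 against 12.09, 12.04 and 12.07 and rose by 0.21 (limma adjusted p = 0.0472). PSMB4 read 12.44, 12.40 and 12.34 against 12.59, 12.54 and 12.57 and rose by 0.17 (limma adjusted p = 0.0451). Neither gene overlapped between groups, but the calls of PSMB2, PSMB4 and PSMB7 were lost in most fits with 1 array left out. PSMB3 gave 0.12 (95% interval -0.053 to 0.284) and PSMB1 gave 0.07 (-0.050 to 0.192), neither of them called.

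The base of the regulatory particle had 4 of 5 ATPase genes higher. PSMC4 read 9.21, 9.24 and 9.01 in controls and 9.66, 9.58 and 9.57 after CDK4/6 siRNA, a rise of 0.45 (1.37-fold, SE 0.071, limma adjusted p = 0.00167). PSMC2 read 11.25, 11.19 and 11.03 against 11.50, 11.50 and 11.51, a rise of 0.35 (1.27-fold, SE 0.067, limma adjusted p = 0.00469). For both genes the lowest CDK4/6 siRNA array lay above the highest control array. PSMC3 read 9.12, 9.12 and 8.96 against 9.38, 9.36 and 9.46 and rose by 0.33 (SE 0.064, limma adjusted p = 0.00476). PSMC1 read 10.94, 10.96 and 10.81 against 11.11, 11.09 and 11.12 and rose by 0.21 (SE 0.059, limma adjusted p = 0.0308). PSMC6 was the ATPase gene without a call: it read 10.98, 10.90 and 10.84 against 10.83, 10.96 and 10.96, with overlapping groups and a change of 0.01 (95% interval -0.137 to 0.158).

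The base also holds large scaffold proteins and a ubiquitin receptor. PSMD1, a scaffold, read 10.47, 10.41 and 10.05 in controls and 10.73, 10.69 and 10.83 after CDK4/6 siRNA, and rose by 0.44 (1.36-fold, SE 0.106, limma adjusted p = 0.0138), with the largest SE of any member. Its size rests in part on control replicate 3, without which the change was 0.31. PSMD2, the scaffold that docks ubiquitin shuttles, gave 0.02 (95% interval -0.153 to 0.201) with overlapping groups. PSMD4, the ubiquitin receptor, read 11.10, 11.15 and 10.99 against 11.21, 11.18 and 11.28 and gave 0.14 (-0.002 to 0.284, limma adjusted p = 0.145), so that only 1 of these 3 genes was called.

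The lid had 4 of 6 member genes higher and no overlap between the groups in any of the 6. PSMD6 read 10.63, 10.54 and 10.33 in controls and 11.00, 10.98 and 11.00 after CDK4/6 siRNA and rose by 0.49 (1.41-fold, SE 0.080, limma adjusted p = 0.00191). PSMD11 read 10.31, 10.36 and 10.08 against 10.71, 10.62 and 10.71 and rose by 0.43 (1.35-fold, SE 0.079, limma adjusted p = 0.00363). Both are horseshoe-forming structural subunits, as is PSMD12, which read 11.34, 11.23 and 11.15 against 11.65, 11.61 and 11.65 and rose by 0.39 (1.31-fold, SE 0.063, limma adjusted p = 0.00187). PSMD14, the metalloprotease that cuts the ubiquitin chain from the substrate, read 11.55, 11.47 and 11.30 against 11.79, 11.76 and 11.83 and rose by 0.35 (1.28-fold, SE 0.071, limma adjusted p = 0.00608). PSMD3 at 0.17 (95% interval -0.002 to 0.344) and PSMD8 at 0.06 (-0.065 to 0.183) were the lid members without a call. SEM1, a lid protein without a PSM name and so not a member, was lower without overlap. Its change of -0.12 (95% interval -0.246 to 0.003) was not called, and it was named after its value was seen.

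Of 3 members that are chaperones for building the base, and are not part of the finished particle, 2 rose and 0 fell. PSMD5 read 9.30, 9.28 and 9.23 in controls and 9.46, 9.53 and 9.52 after CDK4/6 siRNA and rose by 0.23 (1.18-fold, SE 0.054, limma adjusted p = 0.0115). PSMD9 read 9.60, 9.59 and 9.49 against 9.86, 9.71 and 9.77 and rose by 0.22 (1.17-fold, SE 0.062, limma adjusted p = 0.0280). PSMD10, known as gankyrin, is also known to bind CDK4 and the retinoblastoma protein. It read 10.75, 10.75 and 10.76 in controls and 10.61, 10.69 and 10.69 after CDK4/6 siRNA, with every array after CDK4/6 siRNA below every control, but the change of -0.09 did not pass (95% interval -0.209 to 0.032, limma adjusted p = 0.282). Its second probe set gave -0.10.

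Of the 4 genes of alternative caps, PSME3 stood out. It encodes the nuclear PA28 gamma, which opens the core to substrates without ubiquitin, the CDK inhibitor p21 among its known targets. PSME3 read 8.12, 8.02 and 7.74 in controls (mean 7.96 ± 0.20, SD, n = 3) and 8.97, 8.96 and 8.89 after CDK4/6 siRNA (8.94 ± 0.048, SD, n = 3). The lowest CDK4/6 siRNA array was well above the highest control. The rise of 0.98 was 1.97-fold (SE 0.094, limma adjusted p = 0.000167), and its interval of 0.767 to 1.194 lay above that of every other member. Its 3 other probe sets rose by 0.93, 0.77 and 1.00.

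PSME4, the large nuclear PA200 cap, read 9.72, 9.76 and 9.63 in controls and 9.96, 9.90 and 9.95 after CDK4/6 siRNA and rose by 0.24 (SE 0.058, limma adjusted p = 0.0145). PSME1 and PSME2 encode the interferon-induced PA28 alpha and beta subunits, which form a cap together. PSME1 read 11.23, 11.25 and 11.26 against 11.23, 11.21 and 11.21, overlapping, with a change of -0.02 (95% interval -0.138 to 0.092). PSME2 read 10.71, 10.67 and 10.66 against 10.76, 10.79 and 10.80 and gave 0.11 (-0.011 to 0.222, limma adjusted p = 0.179), on a probe set shared with MIR7703 in the annotation. Of the immunoproteasome subunits, left out of the count above, PSMB10 rose by 0.83 and PSMB9 fell by 0.48 (limma adjusted p = 0.000103 and 0.000765), and PSMB8 was dim at 4.53.

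**Figure D2:**
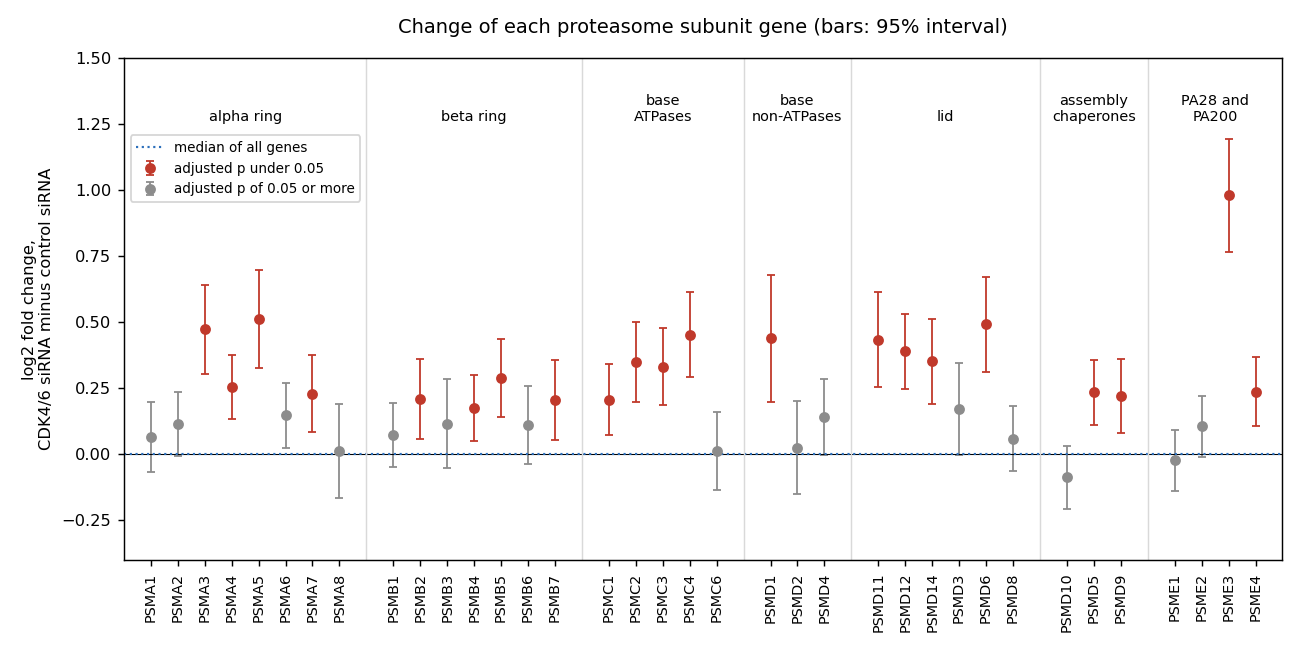
Log2 change of each gene with its unadjusted 95% interval from the limma fit, n = 3 arrays per group, red where the adjusted p over all genes was under 0.05. The dotted line is the median of all genes, next to 0. The 21 called genes all lie above it.

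The core and regulatory particles moved the same way. In the core 8 of 15 genes rose and in the base and lid 9 of 14, with 0 falling in either. The core count depended on single arrays: it was 4 without control replicate 3 and without CDK4/6 siRNA replicate 1 or 3. It was 5 without control replicate 2 or CDK4/6 siRNA replicate 2, and 7 without control replicate 1. The base and lid count was 8 or 9 in every fit with an array left out. Quantile normalization gave 4 and 8, where 2691 of all 19777 genes were called higher. The median change was 0.17 (1.13-fold) for the core and 0.34 (1.27-fold) for the base and lid. On control replicates 1 to 3 the mean level of the 15 core genes was 11.40, 11.37 and 11.27, and on CDK4/6 siRNA replicates 1 to 3 it was 11.56, 11.53 and 11.55. The mean of the 14 base and lid genes was 10.58, 10.56 and 10.37 in controls and 10.78, 10.76 and 10.81 after CDK4/6 siRNA. Both particles were thus higher on every CDK4/6 siRNA array than on any control array, by 0.20 for the core and 0.28 for the base and lid. The core mean minus the base and lid mean was 0.82, 0.81 and 0.89 in controls and 0.78, 0.77 and 0.74 after CDK4/6 siRNA, a difference of -0.076 between the group means with no overlap. No p is given, since this is a score over chosen genes. The core counts, means and medians include PSMA8, which read 3.30 to 3.53 over the 6 arrays. A filter on dim genes dropped PSMA8 and left 14 core genes, 8 of them called, with a median change of 0.19. The base and lid median stayed at 0.34, and the core minus base and lid difference was then -0.063.

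The particles also differed in the brightness of their probe sets, and their order at matched brightness depended on the range taken. The median control level was 11.86 for core probe sets and 10.79 for base and lid probe sets. Of the 6 members with a control level of 12 or more, all in the core, only PSMB4 was called, with a median change of 0.11, and among all genes at that level 12.4% were called higher, against 23.4% at levels of 11 to 12 and 25.4% at levels of 10 to 11. At control levels of 11 to 12 the 7 core genes had a median change of 0.23, with 6 called, and the 4 base and lid genes had a median of 0.35, with 3 called, the same order as over all genes of the particles. Among members with a control level within 0.5 of 11, a range chosen after the values were seen, the 3 core genes PSMA3, PSMA5 and PSMB5 had a median change of 0.47 and all were called, while the 9 base and lid genes had a median of 0.21 and 5 were called, the opposite order. The part of probe brightness in the difference between particles was not tested beyond this.

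**Figure D3:**
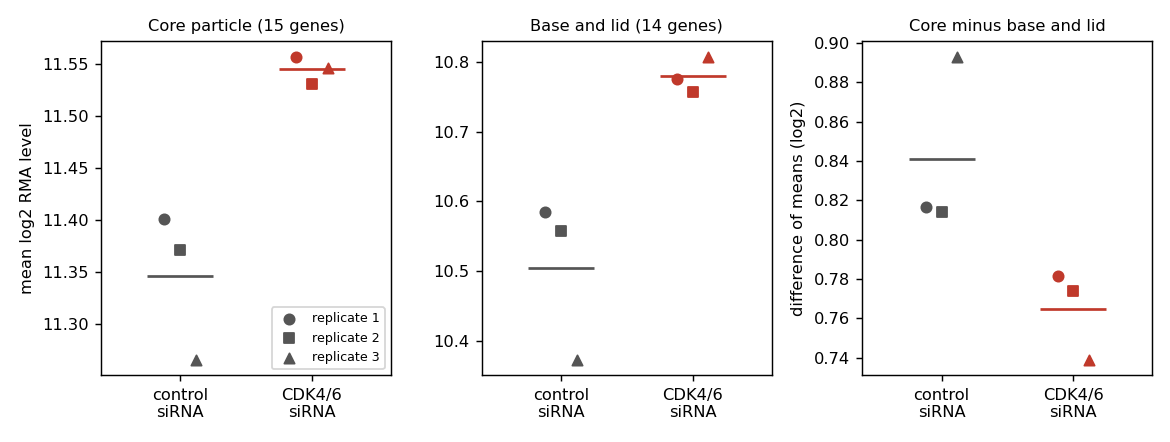
Mean log2 RMA level of the core genes, of the base and lid genes, and the core mean minus the base and lid mean on each array (symbols, replicate number; lines, group means). Both particles are higher on the 3 CDK4/6 siRNA arrays, and control replicate 3 lies below the other controls in the first 2 panels and above them in the third.

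Control replicate 3 was lower than the other controls for most proteasome genes. It gave the lowest control value for 33 of the 36 genes, including all 14 base and lid genes and 14 of 15 core genes, against 40.1% of all genes and 68.6% of all genes called higher. Without it 15 of the 36 genes were called higher and 0 lower, where 2221 of all 19777 genes were called higher. The median change of the members was then 0.16. Leaving out CDK4/6 siRNA replicate 3 left 14 calls, where 2209 of all 19777 genes were called higher. Of the 21 genes, 14 were called in each of the 6 fits with an array left out. The exceptions were PSMA7, PSMB2, PSMB4, PSMB7, PSMC1, PSMD9 and PSME4. The probe signal at the 3′ end minus that at the 5′ end, a sign of RNA quality, was 0.077 ± 0.017 in controls and 0.087 ± 0.038 after CDK4/6 siRNA for GAPDH (log2, SD, n = 3), and 1.45 ± 0.10 and 1.43 ± 0.053 for ACTB.

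Dimmer probe sets of the same genes often gave larger changes, in several genes by less than an SE. Of 15 genes with a second probe set at a mean level of 7 or more, 12 showed a larger rise on a dimmer probe set than on the brightest. For PSMB1 (0.087 against 0.071), PSMB2 (0.240 against 0.208) and PSMB4 (0.193 against 0.174) the excess was below the SE of either probe set. The same held for PSMD1 (0.458 against 0.440) and PSMD4 (0.165 against 0.141). Where a gene had several dimmer probe sets at that level, the one with the largest change was taken, which favours a larger rise. PSMA1 was counted with 0.112 against 0.065, while its other dimmer probe set gave 0.058. PSMD12 rose by 0.96 on its second probe set against 0.39 on the first, PSMC2 by 0.72 against 0.35 and PSME4 by 0.46 against 0.24. A further PSME4 probe set, at a mean level of 7.73, gave 0.17 and was not called. PSMA2, not called on its bright probe set at a control level of 12.15, rose by 0.63 on a second one at 8.55 (limma adjusted p = 0.0014 over 41096 probe sets with 1 gene symbol or that of a member). A dim probe set of PSMA5 at a control level of 5.07 rose by 1.58 (limma adjusted p = 0.0001), about 3 times the change of 0.51 on the bright one. In that fit 18 of the 36 brightest and 14 of the 35 other probe sets were called, all of them higher, where 20.8% of all its probe sets were called and 10.9% were higher. For PSMA3 the other probe sets were dim, with control levels of 5.81 and 3.98, and neither change (-0.13 and 0.12) was called.

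**Figure D4:**
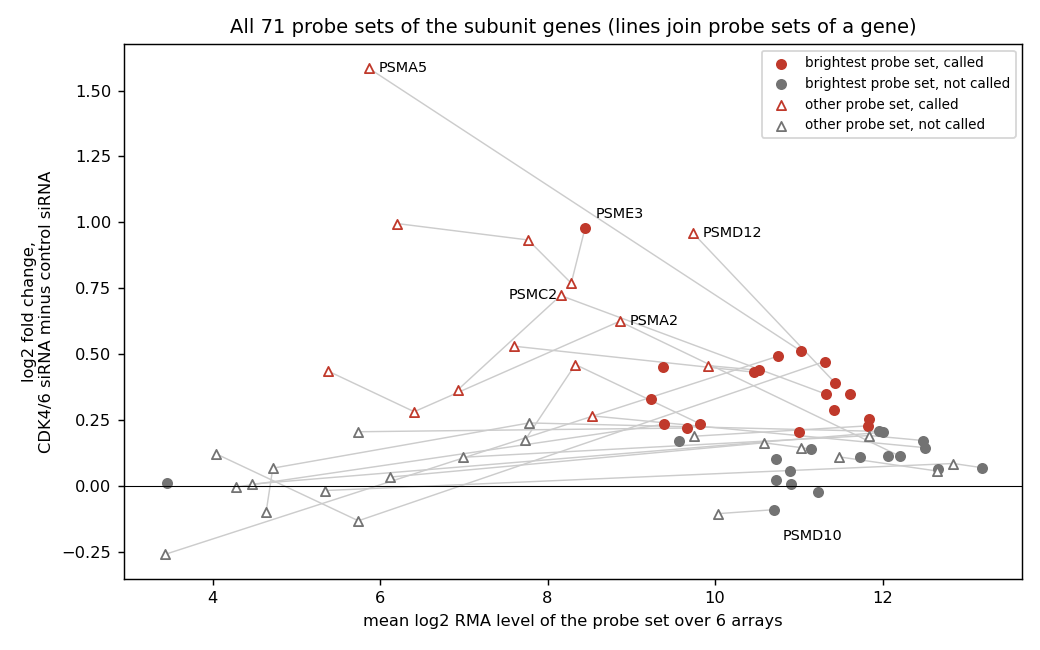
Log2 change of each of the 71 probe sets against its mean log2 level over the 6 arrays, with lines joining probe sets of a gene (circles, the probe set that stands for its gene; triangles, others; red, adjusted p under 0.05 in the fit over 41096 probe sets). Changes are largest between levels of 5 and 10, where PSMA5, PSME3 and PSMD12 are named, and small above 12.

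Genes that build or serve the proteasome under other names were counted from lists written for the purpose. Of 7 genes listed as assembly factors, 4 were called higher and 0 lower, against 14% and 12.9% of all genes, with a median change of 0.24. The 2 negative changes, neither called, were those of PAAF1 (-0.13) and AKIRIN2 (-0.005), named after their values were seen. These 2 do not belong to the core chaperones that follow. PSMG1, which pairs with PSMG2 to start the alpha ring, read 9.92, 9.76 and 9.50 in controls and 10.45, 10.55 and 10.53 after CDK4/6 siRNA and rose by 0.79 (1.72-fold, SE 0.098, limma adjusted p = 0.000536). PSMG3 and PSMG4, partners in a second ring chaperone, rose by 0.49 and 0.60 (limma adjusted p = 0.000586 and 0.000402), and POMP, which completes the core, rose by 0.24 (limma adjusted p = 0.0142), a call that was lost without CDK4/6 siRNA replicate 3 (0.23, limma adjusted p = 0.0558) and on probe sets with a plain name, meaning no suffix for cross-matching probes (0.38, limma adjusted p = 0.0603). PSMG4 rests on 1 of its 5 probe sets, the others being dim with changes of -0.07 to 0.13. PSMG2 itself gave 0.03 (95% interval -0.091 to 0.151), named here after its value was seen.

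Of 13 measured genes for proteins that bind the proteasome, 6 were called higher and 0 lower, against 14% and 12.9% of all genes. Their median change was 0.17, and 5 of the 13 had negative changes. Of these SEM1 (-0.12), TXNL1 (-0.08) and ZFAND5 (-0.12), named after their values were seen, were lower without overlap but not called. A second ZFAND5 probe set, at a control level of 10.59, fell by 0.44 (limma adjusted p = 0.0017 over 41096 probe sets). The deubiquitinases UCHL5 and USP14 rose by 0.57 and 0.41 (limma adjusted p = 0.000331 and 0.00326), the shuttle UBQLN4 by 0.36 and the ubiquitin ligase UBE3C by 0.30 (limma adjusted p = 0.00186 and 0.00295). ADRM1, the base receptor that anchors UCHL5, rose by 0.46 (limma adjusted p = 0.00495), named after its value was seen. With the mean of all probe sets UBE3C gave 0.038 and UBQLN4 0.13, and on the probe sets with a plain name UCHL5 gave 0.048, none of them called. Of 3 ubiquitin and activating enzyme genes measured, UBB rose by 0.18 (limma adjusted p = 0.0338). The UBB call was lost in 5 of the 6 fits with an array left out, with adjusted p of 0.0754 to 0.0967, and held without control replicate 1.

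Of 7 measured genes on the list for NFE2L1, its processing and its partners, 1 rose and 3 fell. NGLY1, the glycanase that NFE2L1 needs to become active, read 9.36, 9.40 and 9.39 in controls and 8.53, 8.54 and 8.55 after CDK4/6 siRNA and fell by 0.85, to 55.6% of the control level (SE 0.051, limma adjusted p = 3.65e-05). Its second probe set fell by 0.75. MAFF, a small MAF partner, fell by 0.74 (limma adjusted p = 8.99e-05) and SEL1L, of the ligase complex at the endoplasmic reticulum, by 0.29 (limma adjusted p = 0.00484). The SEL1L call was lost with the mean of all probe sets (-0.15) and with scaling to the spike-ins (-0.18). VCP, the ATPase that extracts NFE2L1 from the membrane, rose by 0.30 (limma adjusted p = 0.00436). NFE2L1 itself gave 0.03 (95% interval -0.097 to 0.163) and NFE2L2 0.01 (-0.108 to 0.123), both named after their values were seen.

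Promoters were read for 31 of the 36 genes from RefSeq on GRCh38.p14, 250 bases before to 50 after each start, on both strands, since genes of this family are known to share promoter elements. The antioxidant response element core TGACNNNGC was in 11 of the 31 (35.5%), against 18.5% of the array's genes with a promoter in the table and 16.1% of all 27305 genes in it. The ETS core CCGGAA was in 17 (54.8%, against 26.8% and 20.1%), the CCAAT box in 15 (48.4%, against 41.7% and 39.7%) and the E-box CACGTG, which MYC and MAX bind, in 3 (9.68%, against 10.9% and 8.78%). The E2F form TTTCGCGC was in 0 of the 31 (against 0.88% and 0.63%). The form TTTGGCGC was in 2, PSMD5 and PSMD9 (6.45%, against 1.03% and 0.79%). Of the genes with a promoter in the table, 7 of 11 genes with the antioxidant response element core were called and 12 of 20 without it, and for CCGGAA the counts were 11 of 17 and 8 of 14, and no difference was tested. A match is a description of letters and does not show that a factor binds.

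Shown are the promoters of PSME3, the member with the largest change and an E-box, of PSMC4 and PSMD12, called members with an antioxidant response element core, and of PSMB3, which holds both motifs and was not called. Capitals mark TGACNNNGC, CACGTG and CCGGAA on either strand, so that CCGGAA on the other strand reads as TTCCGG, and the marked motifs do not overlap one another. Each runs 5′ to 3′ on the gene's strand, from RefSeq on GRCh38.p14: PSME3 at chr17:42833147-42833446 (plus strand), PSMC4 at chr19:39970915-39971214 (plus), PSMD12 at chr17:67366528-67366827 (minus) and PSMB3 at chr17:38752491-38752790 (plus).
PSME3: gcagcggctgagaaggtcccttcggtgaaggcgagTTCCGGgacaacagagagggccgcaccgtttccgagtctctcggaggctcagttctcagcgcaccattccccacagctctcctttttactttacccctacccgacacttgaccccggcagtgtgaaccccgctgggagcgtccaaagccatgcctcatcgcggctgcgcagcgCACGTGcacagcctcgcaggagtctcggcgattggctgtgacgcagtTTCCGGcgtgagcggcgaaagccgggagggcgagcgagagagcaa
PSMC4: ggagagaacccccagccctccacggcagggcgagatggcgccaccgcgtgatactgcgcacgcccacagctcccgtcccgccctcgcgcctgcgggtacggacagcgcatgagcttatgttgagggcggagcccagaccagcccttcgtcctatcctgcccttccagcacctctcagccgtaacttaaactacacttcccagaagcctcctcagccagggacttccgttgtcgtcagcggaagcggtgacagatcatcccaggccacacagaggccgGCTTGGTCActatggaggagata
PSMD12: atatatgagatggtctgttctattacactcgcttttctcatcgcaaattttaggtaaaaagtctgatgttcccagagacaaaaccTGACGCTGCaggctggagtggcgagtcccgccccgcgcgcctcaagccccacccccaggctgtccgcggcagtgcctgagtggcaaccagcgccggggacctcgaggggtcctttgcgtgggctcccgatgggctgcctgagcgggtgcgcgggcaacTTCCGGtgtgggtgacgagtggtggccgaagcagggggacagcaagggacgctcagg
PSMB3: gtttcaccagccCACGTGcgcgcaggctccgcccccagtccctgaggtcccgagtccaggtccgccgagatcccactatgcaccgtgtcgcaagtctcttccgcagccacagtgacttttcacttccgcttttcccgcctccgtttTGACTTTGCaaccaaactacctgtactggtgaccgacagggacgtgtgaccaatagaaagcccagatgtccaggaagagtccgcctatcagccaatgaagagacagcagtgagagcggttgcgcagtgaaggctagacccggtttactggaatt
The PSME3 E-box starts 42 bases before the start site. The PSMB3 E-box starts 238 bases before it and its antioxidant response element core 104 bases before, and that of PSMD12 165 bases before, while that of PSMC4 lies after the start, from base 28 to 36. The changes were 0.98 for PSME3, 0.45 for PSMC4, 0.39 for PSMD12 and 0.12 for PSMB3.

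The 36 genes lie on 15 chromosomes in the RefSeq table. Chromosome 14 holds 7 of them, of which PSMA3, PSMB5 and PSMC1 were called and PSMA6, PSMC6, PSME1 and PSME2 were not. Chromosome 17 holds 6, of which PSMD11, PSMD12 and PSME3 were called and PSMB3, PSMB6 and PSMD3 were not. All 3 members on chromosome 2, PSMD1, PSMD14 and PSME4, were called.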

How the data were processed

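Total RNA of 6 HCT116 samples was measured on single-channel Affymetrix arrays. The deposited values are log2 expression per probe set, and the submitters' processing notes name RMA, which equalises the distributions between arrays, so changes are relative to the bulk of probe sets. The sources name no version or filter. Of 54675 probe sets, 41097 had 1 gene symbol in the platform annotation, 1801 several and 11777 none. Genes other than members used probe sets with 1 symbol. Members could also use a shared one, as PSMA6 and PSME2 did. No dim genes were removed. The 2 groups were compared with limma 3.58.1 (lmFit, eBayes) under R 4.3.3 in a model without covariates. P-values were adjusted by Benjamini-Hochberg over 19777 genes, and the fit was tested on simulated data. The labels do not say whether equal replicate numbers in the 2 groups pair the arrays, and the main fit used no block. Members, lists and alternatives were chosen with earlier results of these data known. All members were named, with, per other list, at most 4 called genes whose groups did not overlap, by adjusted p, unless stated. Alternatives were other scalings, a replicate block, other choices of probe set, a filter on dim genes, other limma settings, a stricter threshold and leaving out each array. The number of arrays limits the precision. Symbols came from the platform annotation. Chromosomes and promoters came from RefSeq tables of GRCh38.p14, where 36 of 36 members matched the gene table by symbol. Figures used matplotlib 3.10.9.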

Additional observations from a re-analysis of the deposited data

How the results depend on the processing

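The count of proteasome genes called higher was 21 of 36, where 2762 of all 19777 genes were called higher. With 1 array left out it ran from 14 to 19, where 2209 to 2518 of all genes were called higher. Under any alternative 0 members were called lower. At an adjusted p under 0.01 the count called higher was 12 of 36, where 1802 of all 19777 genes were called higher. It was 12 of 26 when probe sets whose names carry a suffix for cross-matching probes were dropped, which leaves 10 genes unmeasured. In that fit 2030 of all 16783 genes were called higher. Of the 21 calls 10 held under every alternative in which the gene was measured, those of PSMA4, PSMA5, PSMB5, PSMC2, PSMC3, PSMC4, PSMD11, PSMD12, PSMD14 and PSME3. PSMA3 (0.16), PSMB2 (0.10), PSMB4 (0.16), PSMB7 (0.11), PSMD5 (0.12), PSMD6 (0.12) and PSMD9 (0.21) lost the call with the mean of all probe sets. PSMA2 (0.36) and PSMA6 (0.21) gained it there. No called change turned its sign under any alternative. With 1 array left out the core median ran from 0.14 to 0.20, the base and lid median from 0.28 to 0.38, and the core minus base and lid difference from -0.090 to -0.051. The filter on dim genes, which dropped PSMA8, gave a core median of 0.19 and a difference of -0.063. Scaling the arrays to the hybridisation spike-ins, whose mean was lower by 0.11 after CDK4/6 siRNA, moved the median of all genes to 0.11. It gave 28 members higher and 0 lower, and a core median of 0.28. In that fit 4733 of all 19777 genes were called higher and 1320 lower. Of all called genes 78.2% were thus higher, against 52.0% in the main fit. The members' median lay 0.21 above that of all genes under both scalings, which was fixed in advance, since this scaling moves all genes of an array alike. On members with a control level within 0.5 of 11, chosen after seeing the data, the core median was 0.47, the base and lid median 0.21 and the difference 0.20, while at 11 to 12 the medians were 0.23 and 0.35. With the replicate number as a block 17 members were called higher, 5 of 15 core and 8 of 14 base and lid genes. Of all 19777 genes 2481 were called higher in that fit, and the UBB call was lost (limma adjusted p = 0.0783). Deviations of arrays with the same number correlated at -0.010, -0.12 and -0.0066, and 0 of 6 arrays correlated best with their own number. Background correction and scanner batches could not be varied from RMA values.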
